A study of Danio rerio with 9 samples.

Results

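The transcripts described here are 244 long non-coding RNAs (lncRNAs) of the zebrafish caudal fin whose levels were lower 3 days after amputation (3 dpa) than in the intact fin, out of 4494 in the lncRNA table. They were chosen on the measured values, so their fall at 3 dpa is how they were selected and is described here without a test. A member had a mean log2(value + 0.1) at least 1 lower at 3 dpa than in intact fin, and every 3 dpa value below every intact value. It also had a mean intact value of at least 0.5 and was not among the 30 rows with the highest mean over all 9 libraries. The values are a normalised abundance ("signal") per transcript and library as deposited.

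Total RNA was sequenced from wild-type zebrafish, with 3 libraries from intact caudal fins (CK0dpa), 3 from regenerating fins at 3 dpa (T3dpa) and 3 from regenerating fins at 7 dpa (T7dpa). The intact fins served as the control. The labels do not say how many fish made up a library or whether replicates came from separate fish, so the p-values cover differences among these libraries, and that spread may be technical. The sources used here give no age and no strain beyond wild type. Transcripts carry an ID and no gene name, so no marker gene could be used to check the tissue, and the lncRNAs are described by ID, level and class. An ENSDART ID is that of an Ensembl transcript and is called annotated here, and a TCONS ID is called assembled.

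lncRNAs are long RNA polymerase II transcripts without a recognised protein product. Known ones act on chromatin, as scaffolds or decoys for proteins and RNAs, or through the act of their own transcription near other genes, and many are made at low levels in few tissues. The zebrafish caudal fin regrows after amputation through a wound epidermis and a blastema of dividing cells beneath it, followed by outgrowth in which bone rays, vessels, nerves and pigment cells are rebuilt. No function is known from the files for any of the transcripts named below. In bulk RNA, fewer cells of a type and less RNA per cell cannot be told apart.

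The lncRNA total per library fell with the group as well, from 18149 ± 1692 in intact fin to 11033 ± 1121 at 3 dpa, and was 14448 ± 1531 at 7 dpa (SD, n = 3). Over the 1671 lncRNAs tested, the median log2 difference from intact fin was -0.45 at 3 dpa and -0.23 at 7 dpa. In limma 61 were called higher and 254 (15.2%) lower at 3 dpa. Scaling by TMM factors of the lncRNA table moved the median at 3 dpa to -0.04 and gave 105 higher and 105 lower, and quantile normalization gave 111 and 104. Differences of the members below are on the scale of the deposited values and are best read against those medians.

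Most members were of low level in intact fin. Their mean intact value ran from 0.507 to 27.7 with a median of 1.51 (quartiles 0.859 and 3.81). At 3 dpa the median of their means was 0.457, and at 7 dpa it was 0.825. The log2 difference at 3 dpa had a median of -1.61 and reached -4.37. It was at most -2 in 72 members and at most -3 in 13. The set held 28.7% of the 850 lncRNAs that met the same 2 level criteria. The share changed little with level. Members made up 27.1% of those rows with an intact mean of 0.5 to 1, 31.2% from 1 to 2, 27.5% from 2 to 5 and 29.4% from 5 upward.

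**Figure D1:**
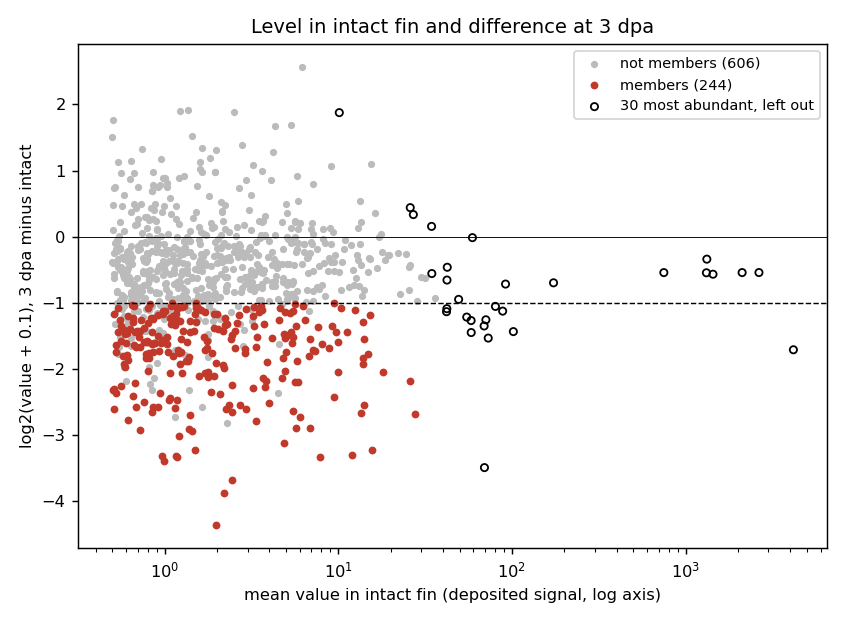
Each point is a lncRNA with a mean intact value of at least 0.5 or among the 30 most abundant, with the mean intact value on a log axis against the log2(value + 0.1) difference of 3 dpa minus intact fin. The 244 members (red) lie under the dashed line at -1 at all levels, most of the 606 other transcripts (grey) also lie below 0, and open circles are the 30 most abundant rows that were left out.

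The edges of the set were not sharp. Just inside the threshold on the difference were TCONS_00066117 and ENSDART00000174100, with log2 differences of -1.0016 and -1.0035. Just outside were TCONS_00016170 at -0.9992 and ENSDART00000175829 at -0.9907. On intact level, TCONS_00027070 was inside with a mean of 0.507 and ENSDART00000177055 outside with 0.480. On the separation of libraries, TCONS_00049873 was inside with a lowest intact value of 0.56 and a highest 3 dpa value of 0.55. ENSDART00000168507 was outside because those values were both 0.32. In all, 143 rows failed only the size of the difference, 70 only the separation, 64 only the intact level and 12 only the exclusion of the most abundant rows.

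The most abundant member was TCONS_00051764, an assembled transcript, with values of 29.84, 19.58 and 33.73 in intact fin, 3.87, 1.60 and 11.02 at 3 dpa, and 18.99, 24.53 and 22.20 at 7 dpa. Its 3 dpa libraries were spread widely, and its 7 dpa libraries lay within the range of the intact ones except for 1 that was slightly lower. ENSDART00000148196 had 19.15, 26.10 and 32.48 in intact fin, 4.69, 4.92 and 7.12 at 3 dpa, and 19.32, 15.55 and 21.82 at 7 dpa, so intact and 7 dpa libraries overlapped. ENSDART00000176871 had 17.84, 17.42 and 18.86, then 4.91, 4.02 and 4.03, then 10.74, 9 and 14.54. Its 3 groups did not overlap, with 7 dpa in the middle.

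ENSDART00000177544 had 8.98, 17.23 and 20.68 in intact fin, 0.71, 1.43 and 3.07 at 3 dpa, and 13.78, 8.51 and 13.94 at 7 dpa. Its values varied widely within each group, while 3 dpa stayed apart from both others. ENSDART00000177848 behaved unlike it, with 15.54, 14.77 and 15.33 in intact fin, 6.72, 6.72 and 6.35 at 3 dpa, and 7.94, 10.13 and 10.81 at 7 dpa. Its replicates were close within intact fin and 3 dpa, its fall was one of the smaller ones (log2 difference -1.19), and its 7 dpa libraries stayed below all intact ones (log2 difference -0.67, limma adjusted p = 0.0281, a call lost in 9 of 19 alternatives). ENSDART00000174415 had 16.43, 16.22 and 11.64, then 4.64, 4.73 and 3.32, then 6.49, 9.14 and 10.14, with 7 dpa between the others in every library.

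Most of the 6 largest falls among members with an intact mean of at least 1 were in transcripts at or near 0 at 3 dpa. TCONS_00018578 had 2.18, 1.61 and 2.16 in intact fin, reached 0 in each 3 dpa library, and at 7 dpa had 0, 0.54 and 1.53. ENSDART00000160098 had 4.70, 1.32 and 1.26 in intact fin, 0, 0.16 and 0.07 at 3 dpa, and 0, 2.12 and 0.59 at 7 dpa, so that 1 of its 7 dpa libraries was inside the intact range, 1 between the groups and 1 at 0. ENSDART00000177369 had 1.49, 1.93 and 3.13, then 0.23, 0 and 0, then 0.51, 2.31 and 1.26, with 7 dpa above all of 3 dpa. TCONS_00044431 had 0.85, 1.24 and 1.44, then 0, 0.09 and 0, then 0, 0 and 0.47, so it stayed near 0 in 2 of 3 libraries at 7 dpa. ENSDART00000175628 was the most abundant of the 6 and remained detected in every library, with 8.78, 6.75 and 7.86 in intact fin, 0.50, 1.52 and 0.38 at 3 dpa, and 2.18, 1.17 and 2.56 at 7 dpa. It fell by 3.34 on the log2 scale at 3 dpa and its 7 dpa values overlapped those of 3 dpa. For the members at or near 0 the pseudocount of 0.1 sets the size of the change.

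Loss from detection was the exception. No member was listed at 0 in an intact library, which the rule requires. At 3 dpa 29, 24 and 28 members were at 0 in replicates 1, 2 and 3, and at 7 dpa 15, 17 and 15 were. Only 8 were at 0 in each of the 3 dpa libraries, and 6 of these had a value above 0 in at least 1 library at 7 dpa. TCONS_00059403 had 0.99, 1.32 and 0.66 in intact fin, 0 in each 3 dpa library, and 0.1, 0.32 and 0.11 at 7 dpa. ENSDART00000177950, with 1.11, 1.26 and 0.51 in intact fin, was listed at 0 in all 6 regenerate libraries. So was TCONS_00038949, whose place in the set rests mostly on 1 intact library (0.29, 1.84 and 0.14). ENSDART00000158696 had 0.44, 1.36 and 1.68 in intact fin, 0, 0 and 0.04 at 3 dpa, and 0 in each library at 7 dpa. Depth is unknown, so a listed 0 gives no upper limit.

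**Figure D2:**
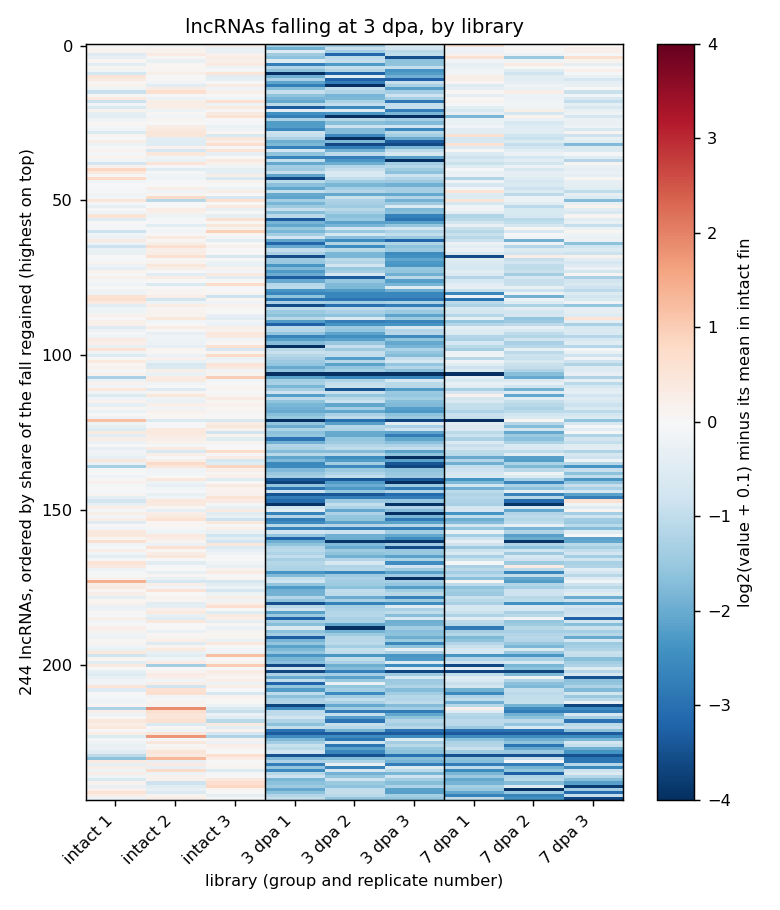
Rows are the 244 members and columns the 9 libraries, coloured by log2(value + 0.1) minus the member's mean in intact fin, and ordered from members that regained most of their fall (top) to those that regained none (bottom). All 3 dpa columns are below the intact ones, which the rule requires, and the 7 dpa columns pass from near the intact colour at the top to the 3 dpa colour or below at the bottom.

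The 7 dpa libraries entered the choice of members only through the exclusion of the 30 rows with the highest mean over all 9 libraries. At 7 dpa most members stood between the 2 other groups. The mean log2 value at 7 dpa lay between those of 3 dpa and intact fin in 220 of 244 members, at or below that of 3 dpa in 22 and at or above that of intact fin in 2. It lay above that of 3 dpa and below that of intact fin in 643 of all 1671 lncRNAs tested. The same held for 453 of the 850 that met the level criteria. It was at or below that of 3 dpa in 619 of those tested and 253 of those meeting the criteria. The rows counted include some that rose at 3 dpa, which cannot have 7 dpa above 3 dpa and below intact fin. Every member fell by the rule, so these counts are not a like background. The median log2 difference from intact fin was -0.88 at 7 dpa, against -0.23 over all lncRNAs tested. In the separate 7 dpa libraries that median was -0.86, -0.97 and -0.76. The median difference of 7 dpa from 3 dpa was 0.78, against 0.20 over all tested. These comparisons share their intact or 3 dpa libraries with the rule, and selection of transcripts high in the one and low in the other favours a 7 dpa value in between.

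The share of the fall regained was computed for each member as the log2 difference of 7 dpa from 3 dpa, divided by that of intact fin from 3 dpa. Its median was 46.3% (quartiles 28.9% and 62.4%). It was 0 or less in 22 members, up to 25% in 35, 25 to 50% in 78, 50 to 75% in 76, 75 to 100% in 31 and over 100% in 2. The same ratio had a median of 44.99% over all lncRNAs tested and 42.4% over the 850 meeting the level criteria. For the 606 of these that were not members it was 39.9% (quartiles -11.3% and 87.4%). Among those 606, 173 were at 0 or less and 131 over 100%. So a median of this size was not particular to members. Their shares were less spread, but the rule sets the fall they are divided by at 1 or more. In the 606 others that divisor could be near 0 (median log2 difference at 3 dpa -0.40), which widens the spread of the ratio. In rows that rose at 3 dpa the ratio is the share of the rise undone. With TMM factors of the lncRNA table the members' median was 44.9%, 45.8% with those of the mRNA table and 45.3% with quantile normalization. At all levels the median was similar, at 40.0% for members with an intact mean of 0.5 to 1, 48.9% from 1 to 2, 47.8% from 2 to 5 and 44.4% from 5 upward.

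**Figure D3:**
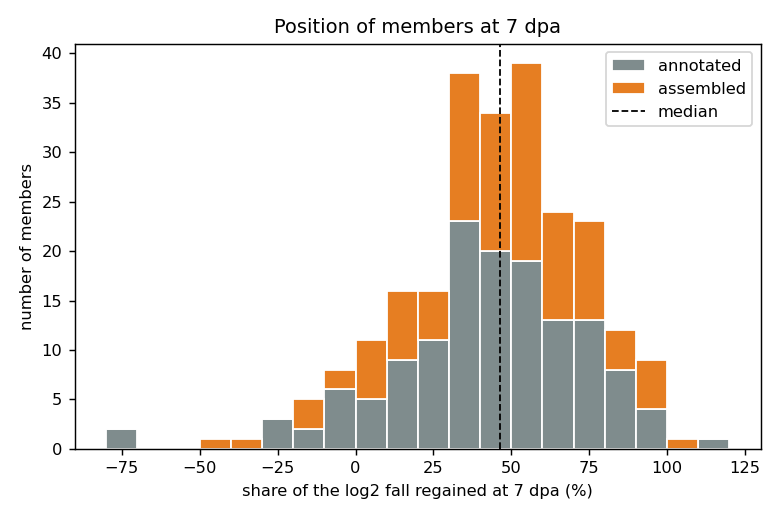
The histogram counts members by the share of their log2 fall regained at 7 dpa, in percent, stacked by class (annotated grey, assembled orange), with the median of 46.3% dashed. Most members lie between 25% and 75%, and few reach 100% or stay at 0 or less.

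By separate libraries, every 7 dpa value was below every intact value in 150 members (61.5%), against 18.0% of all lncRNAs tested and 30% of those meeting the level criteria. Every 7 dpa value was above every 3 dpa value in 115 members (47.1%), against 16.8% and 24.5%. Both held in 65 members, so their 3 groups did not overlap at all, against 4.85% of those tested and 8.94% of those meeting the level criteria. The count of 65 became 33 with TMM factors of the lncRNA table and 31 with quantile normalization. Shares over all lncRNAs are not given here for those scalings, so 33 and 31 cannot be set against a background. The 7 dpa libraries were apart from intact fin alone in 85 members, from 3 dpa alone in 50 and from neither group in 44. The same held for 13.1%, 12% and 70.1% of all tested, and for 21.1%, 15.5% and 54.5% of those meeting the level criteria. No member had every 7 dpa value above every intact value, against 6.28% of all tested and 4.94% of those meeting the level criteria. ENSDART00000178030 was the single member with every 7 dpa value below every 3 dpa value, against 5.03% and 4.47%. It had 0.16, 0.19 and 0.15 at 3 dpa and 0.12, 0.14 and 0.08 at 7 dpa. Intact and 3 dpa libraries were shared with the rule, so selection favours 7 dpa values below intact fin and above 3 dpa. Among members clear separation rose with level. The same split is not given here for the other lncRNAs, so this may not be particular to members. Both separations held in 7 of 76 members with an intact mean of 0.5 to 1, in 12 of 68 from 1 to 2, in 20 of 52 from 2 to 5 and in 26 of 48 from 5 upward.

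In limma over all lncRNAs tested, 39 members were called lower at 7 dpa than in intact fin (16%, Benjamini-Hochberg adjusted p under 0.05), against 3.29% of all tested and 5.65% of those meeting the level criteria. No member was called higher, against 1.92% of all tested and 1.76% of those meeting the level criteria. Called higher at 7 dpa than at 3 dpa were 24 members (9.84%), against 2.03% and 3.29%. None was called lower than at 3 dpa, against 0.239% and 0%. Both calls were made for 7 members, which were 7 of the 8 such lncRNAs among all tested (0.479%) and all of those meeting the level criteria (0.824%). These comparisons share intact or 3 dpa libraries with the rule, which chose high intact and low 3 dpa values. That favours calls in these directions, so the counts are a description only. The count of 39 was lower whenever a single library was left out, which also leaves fewer replicates. It was 18, 13 and 14 without replicates 1, 2 and 3 of intact fin, and 16 and 14 without replicates 1 and 2 of 7 dpa. The count of 24 was 15 without replicate 1 of 3 dpa and 13 without replicate 3 of 7 dpa. Counts over all lncRNAs without those libraries are not given here. Of the 39 calls, 14 remained with TMM factors of the lncRNA table, and of the 24 calls also 14.

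Several of the most abundant members were called higher at 7 dpa than at 3 dpa. The 7 dpa minus 3 dpa difference was 1.75 for ENSDART00000148196 (SE 0.23, limma adjusted p = 0.00419), 1.36 for ENSDART00000176871 (SE 0.18, limma adjusted p = 0.00419) and 2.91 for ENSDART00000177544 (SE 0.45, limma adjusted p = 0.00789). TCONS_00001351 had 4.24, 5.98 and 7.28 in intact fin, 0.78, 1.1 and 1.80 at 3 dpa, and 4.45, 7.21 and 4.35 at 7 dpa. Its 7 dpa libraries lay inside the intact range and above all of 3 dpa (difference from 3 dpa 2.07, SE 0.32, limma adjusted p = 0.00779). ENSDART00000179287 had 8.83, 10.62 and 8.78, then 1.34, 1.29 and 2.63, then 6.5, 5.62 and 6.22, its 3 groups apart (1.82, SE 0.25, limma adjusted p = 0.00419). For these 5 the call held in all 19 alternatives that were run.

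ENSDART00000179468 regained the most, with 1.05, 0.97 and 1.46 in intact fin, 0.38, 0.35 and 0.67 at 3 dpa, and 1.74, 1.11 and 1.17 at 7 dpa, or 116% of its fall. ENSDART00000178305 had 6.58, 5.11 and 7.20, then 4.28, 3.14 and 1.92, then 5.67, 5.58 and 6.84, with its 7 dpa libraries inside the intact range. ENSDART00000174100 had 1.66, 1.67 and 1.19, then 0.99, 0.51 and 0.65, then 1.24, 1.45 and 1.74. None of the 3 was called between 7 and 3 dpa (limma adjusted p = 0.0628, 0.075 and 0.118). TCONS_00060703 regained 96.3% on average, but its 7 dpa values of 1.67, 0.31 and 1.70 were split between the range of 3 dpa and values above intact fin.

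**Figure D4:**
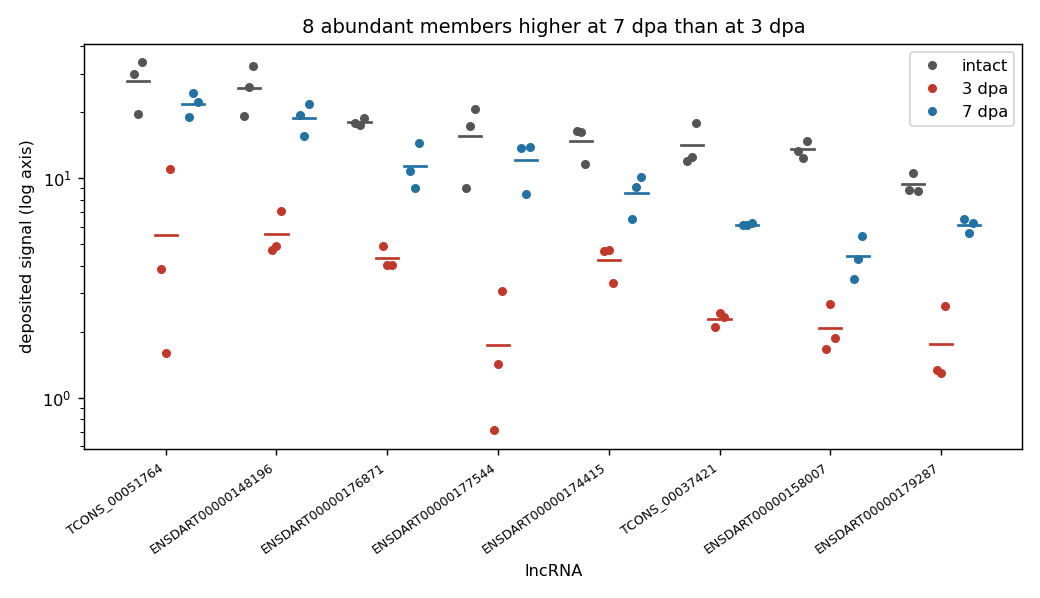
Points are the deposited signal in each library (log axis) and horizontal marks the group means (n = 3) for the 8 most abundant members called higher at 7 dpa than at 3 dpa. The 3 dpa libraries (red) lie below the 7 dpa libraries (blue) in each transcript, and 7 dpa overlaps intact fin (grey) in TCONS_00051764, ENSDART00000148196 and ENSDART00000177544.

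In some members the 7 dpa libraries lay between the other groups and apart from both. TCONS_00037421 had 11.97, 12.50 and 17.85 in intact fin, 2.11, 2.43 and 2.33 at 3 dpa, and 6.11, 6.12 and 6.22 at 7 dpa. Its 7 dpa replicates were almost identical, and it was called both against intact fin (log2 difference -1.16, SE 0.17, limma adjusted p = 0.00534) and against 3 dpa (1.39, SE 0.17, limma adjusted p = 0.00419). ENSDART00000158007 had 13.36, 12.41 and 14.79, then 1.67, 2.66 and 1.87, then 3.46, 4.28 and 5.47. It was nearer to 3 dpa, at 39.5% regained, and was also called against both (limma adjusted p = 0.00327 and 0.0273), the second call being lost in 8 of 19 alternatives. ENSDART00000007434 had 5.52, 5.61 and 6.90, then 0.85, 0.80 and 0.79, then 1.98, 1.58 and 1.72 (limma adjusted p = 0.00153 against intact fin and 0.0266 against 3 dpa), its second call being lost in 10 of 19 alternatives.

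Members that stayed below intact fin at 7 dpa could also lie above 3 dpa. Called lower than intact fin at 7 dpa under all 19 alternatives were 8 members, which include TCONS_00037421, ENSDART00000158007 and ENSDART00000007434 above. Another was ENSDART00000175796, with 8.04, 6.06 and 7.79 in intact fin, 2.23, 1.89 and 2.20 at 3 dpa, and 2.82, 2.82 and 2.81 at 7 dpa. It had regained 23.4% of its fall, and its 3 groups did not overlap. TCONS_00045363 had 4.40, 5.10 and 5.23, then 1.97, 2.40 and 2.12, then 2.38, 2.44 and 2.28, and had regained 11.2%, its 7 dpa libraries overlapping those of 3 dpa. Both were chosen after their values were seen. ENSDART00000174069, among the members of highest intact level, had 13.04, 9.81 and 13.35, then 1.00, 1.05 and 1.34, then 5.09, 1.81 and 2.62 (difference at 7 dpa from intact fin -2.01, SE 0.32, limma adjusted p = 0.00688). Its 7 dpa libraries lay above all of 3 dpa, and it had regained 39.2% of its fall. ENSDART00000177950 and ENSDART00000158696 kept the call in the 16 and 15 alternatives where they were tested, and were untested in the rest. How many of all lncRNAs were called under all 19 alternatives is not given here, so 8 cannot be set against a background.

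In 22 members the mean of log2(value + 0.1) at 7 dpa was at or below that at 3 dpa. ENSDART00000178865 had 3.81, 3.52 and 2.40 in intact fin, 1.35, 1.45 and 1.18 at 3 dpa, and 0.42, 0.41 and 1.60 at 7 dpa, with replicate 3 of 7 dpa above all 3 dpa libraries. ENSDART00000178049 had 1.01, 1.35 and 1.1, then 0.55, 0.33 and 0.33, then 0.51, 0.13 and 0. ENSDART00000141092 had 3.55, 6.22 and 7.43, then 1.47, 3.03 and 2.03, then 1.25, 2.46 and 1.61, so that 7 and 3 dpa overlapped. None of these 3 was called between 7 and 3 dpa (limma adjusted p = 0.336, 0.408 and 0.778). TCONS_00005787 had 1.92, 1.38 and 1.85, then 0.34, 0.81 and 0.31, then 0.53, 0 and 0.59, and ENSDART00000177489 had 0.99, 0.89 and 2.32, then 0.41, 0.34 and 0.48, then 0.45, 0.87 and 0. Each was at 0 in 1 library at 7 dpa, and the pseudocount then weighs on its mean log2 value. The mean of the values themselves was slightly higher at 7 dpa for ENSDART00000177489, at 0.44 against 0.41.

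Summed over all members, the signal was 754, 803 and 794 in the intact libraries, 218, 227 and 223 at 3 dpa, and 434, 398 and 485 at 7 dpa. As a share of the lncRNA total this was 4.34% ± 0.29, 2.03% ± 0.17 and 3.06% ± 0.43 (SD, n = 3). The total is made up mostly of the 30 most abundant rows. Without these, members held 26.3% ± 0.32, 10.5% ± 0.18 and 17.5% ± 1.6. The 606 other lncRNAs that met the level criteria had sums of 2003 ± 53, 1703 ± 21 and 1853 ± 45 in the same order. Members with a value of at least 1 numbered 163 to 172 per intact library, against 63 to 73 at 3 dpa and, later, 100 to 115 at 7 dpa. The drop of the members at 3 dpa and its contrast with the others follow from the rule.

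**Figure D5:**
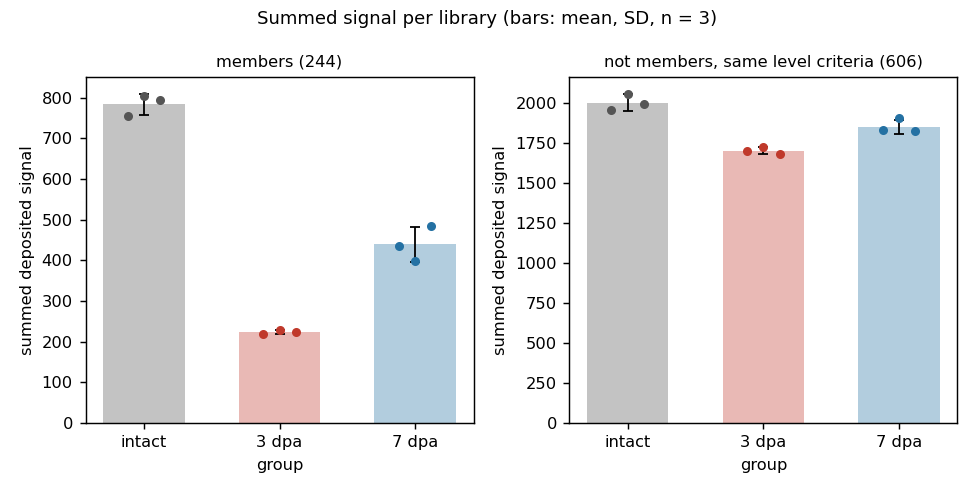
Bars are the mean summed signal per group with the SD (n = 3) and points the separate libraries, for the 244 members (left) and for the 606 other lncRNAs that met the same level criteria (right), each with its own axis from 0. The members' sum has a mean of 784 in intact fin, falling to 223 by 3 dpa, and of 439 in the 7 dpa group. That of the others is 2003, 1703 and 1853 in the same order. The contrast between the panels at 3 dpa follows from the rule, which chose the members for their fall.

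Assembled transcripts made up 105 of the 244 members (43.0%), against 32.2% of the 606 other rows that met the level criteria and 28.7% of all tested. Put the other way, 35% of assembled and 25.3% of annotated rows at that level were members. Assembled members were the less abundant, with a median intact mean of 1.17 against 1.97 for the 139 annotated ones. They made up 56.6% of members with an intact mean of 0.5 to 1 and 22.9% of those from 5 upward. Their median differences were close to those of annotated members, at -1.67 and -1.60 at 3 dpa and at -0.90 and -0.88 at 7 dpa, and the median shares regained were 48.9% and 44.2%. Of assembled members 11 (10.5%) were called lower at 7 dpa than in intact fin, and of annotated ones 28 (20.1%), against 3.29% of all tested. Such calls were more frequent at higher level, at 6.58% of members with an intact mean of 0.5 to 1 and 41.7% from 5 upward. The difference between the classes was not tested, and shares by class over all lncRNAs are not given here.

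Within intact fin the members varied about as much as the other lncRNAs that met the level criteria, and at 3 and 7 dpa somewhat more. The rule asks for separate intact and 3 dpa libraries, which selects on the spread within those groups. Levels were not alike at 3 dpa, where the median of the mean values was 0.457 for members and 1.24 for the others. At 7 dpa these medians were 0.825 and 1.38. The median SD of log2(value + 0.1) between replicates in the intact, 3 dpa and 7 dpa groups was 0.34, 0.41 and 0.37, against 0.35, 0.33 and 0.33 for the 606 others. The highest intact value was under 2 times the lowest in 174 members and at least 4 times the lowest in 11. Replicate 2 of 7 dpa was the lowest of its group in 104 members and the highest in 53, whereas replicate 3 was the lowest in 62 and the highest in 99.

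A trio of assembled members followed one another from library to library. TCONS_00058674 had 17.32, 16.85 and 7.32 in intact fin, 4.37, 3.32 and 3.06 at 3 dpa, and 4.89, 2.81 and 12.76 at 7 dpa. TCONS_00039155 had 16.81, 17.24 and 7.43, then 4.05, 3.09 and 2.93, then 6.02, 3.06 and 12.34. TCONS_00058673 had 12.98, 11.17 and 5.71, then 2.69, 1.92 and 2.05, then 4.11, 1.95 and 8.32. All 3 were low in replicate 3 of intact fin and high in replicate 3 of 7 dpa, where the value exceeded that intact library. After the group means were removed, their log2 values correlated over the 9 libraries at r = 0.993, 0.990 and 0.984, the highest among the 113 members with a mean of at least 1. Transcripts that share sequence can share reads, so these 3 may not be independent measurements. Their 7 dpa levels rest on which library is read, and none was called at 7 dpa against either group (lowest limma adjusted p = 0.165).

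The set depended on the scaling. With TMM factors of the lncRNA table, 118 rows met the rule, all of them members, and 206 did with those of the mRNA table, also all members. At 7 dpa 242 members were lower than intact fin as deposited, 228 with TMM factors of the lncRNA table and 225 with quantile normalization. As deposited, the 7 dpa mean was at or above that of intact fin in 2 members. The same held for 619 of the 1671 lncRNAs tested and 213 of the 850 meeting the level criteria. Such counts over all lncRNAs are not given here for the other scalings, and the rule's choice of intact values favours a lower 7 dpa mean. The 118 members that met the rule with lncRNA factors were the more abundant, with a median intact mean of 2.04 against 1.19 for the other 126, and regained a median of 48.2% of their fall against 43.8%. They also had the larger falls as deposited, with a median log2 difference at 3 dpa of -2.06 against -1.31. The 118 held 22 of the 24 members called higher at 7 than at 3 dpa and 26 of the 39 called lower at 7 dpa than in intact fin. Larger falls and higher levels favour such calls, so these counts are a description only.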

How the data were processed

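Zebrafish caudal fin RNA was sequenced in 9 libraries, 3 per group, grouped by their titles. The authors deposited a lncRNA and an mRNA table of signal per transcript and library with 2 decimals, and whether this is FPKM or TPM is not given in the sources used here. The submitters' processing notes list TopHat2 2.0.3.12, cutadapt, edgeR and RSEM without saying what each did, and name hg38, a human build. Depth is unknown. No ID matched the name tables (0 of 4494), and no sequences were used.

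Rows with at least 0.1 in at least 3 libraries were tested with limma 3.58.1 in R 4.3.3 (trend, robust) on log2(value + 0.1), all 9 libraries in one model, two-sided, Benjamini-Hochberg over 1671 rows. All 244 members passed that filter. Members, lists and tests were chosen with earlier results of these data known. Named members are those of highest intact level, largest fall, largest and smallest share regained, listed at 0 at 3 dpa, called between 7 and 3 dpa, or nearest a threshold; the trio, ENSDART00000007434, ENSDART00000174069, ENSDART00000175796, ENSDART00000178030, TCONS_00038949 and TCONS_00045363 were added after their values were seen. TMM factors were unweighted (log-ratio trim 0.3). Python 3.11.15 was used otherwise. The fit was tested on simulated data. Alternatives covered pseudocount, filter, scaling, groups fitted, the robust setting, a replicate block, each threshold and leaving out each replicate.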

Additional observations from a re-analysis of the deposited data

Results flagged for a closer look

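For 8 members the change against intact fin differed between 7 and 3 dpa in the direct limma test. They were taken as the most abundant of the 24 with that call, and since the 3 dpa libraries chose them, selection favours a move back. The 7 dpa minus 3 dpa difference was 2.38 for TCONS_00051764 (limma adjusted p = 0.0388), 1.75 for ENSDART00000148196 (limma adjusted p = 0.00419), 1.36 for ENSDART00000176871 (limma adjusted p = 0.00419) and 2.91 for ENSDART00000177544 (limma adjusted p = 0.00789). It was 1.00 for ENSDART00000174415 (limma adjusted p = 0.0422), 1.39 for TCONS_00037421 (limma adjusted p = 0.00419), 1.06 for ENSDART00000158007 (limma adjusted p = 0.0273) and 1.82 for ENSDART00000179287 (limma adjusted p = 0.00419). All 3 libraries at 7 dpa lay above all 3 at 3 dpa in each. The calls of TCONS_00051764, ENSDART00000174415 and ENSDART00000158007 were lost in 10, 13 and 8 of 19 alternatives, with limma adjusted p from 0.00218 to 0.123, 0.0288 to 0.146 and 0.0205 to 0.114.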

How the results depend on the processing

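The 244 members became 84 with a pseudocount of 1, 118 with TMM factors of the lncRNA table, 110 with quantile normalization and 147 at a difference of at most -1.5, and 256 to 286 when single libraries were left out, which eases the separation. Members called lower at 7 dpa than intact fin (39) numbered 59 with a pseudocount of 1, 14 with TMM factors of the lncRNA table, 16 with quantile normalization and 13 to 34 without single libraries. Members called higher at 7 than 3 dpa (24) numbered 14, 13 with quantile normalization, 13 with only the 2 groups fitted and 13 to 23 without single libraries. Calls of members at 3 dpa are not reported, since the rule used that contrast. The median difference at 7 dpa (-0.88) was -0.49 with a pseudocount of 1, -0.63 with lncRNA TMM factors, -0.61 with quantile normalization and -0.94 to -0.81 without single libraries. At 3 dpa (-1.61) it was -1.90 and -0.81 with pseudocounts of 0.01 and 1, -1.18 and -1.51 with TMM factors of the lncRNA and mRNA tables, -1.15 with quantile normalization and -1.65 to -1.56 without single libraries. Member shares without the 30 most abundant rows were 26.3%, 10.5% and 17.5%. The cause was not tested. No named value reversed. Deviations of same-numbered libraries were nearly uncorrelated (r -0.045 to 0.050, and 3 of 9 libraries correlated best with their own number). This cannot show whether such libraries came from the same fish. A replicate block gave 20 members called lower than intact fin and 15 called higher than 3 dpa. Unknown depth limits what values near 0 can show.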

Other observations

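By the mirrored rule (3 dpa higher by at least 1 on the log2 scale, separate libraries, mean 3 dpa value of at least 0.5, outside the 30 most abundant rows) 53 lncRNAs were higher at 3 dpa, beside the 244 lower. This imbalance depended on the scaling, in counts made after seeing the data. It was 104 beside 118 with TMM factors of the lncRNA table, 109 beside 110 with quantile normalization and 64 beside 206 with TMM factors of the mRNA table. On the deposited scale the median log2 difference of the 53 from intact fin was 1.67 at 3 dpa and 1.13 at 7 dpa, so that a median of 34.9% of the rise had been undone, beside 46.3% of the fall for the members. These shares were not compared by a test. Of the mRNA rows with a mean intact value of at least 0.5, 16.5% (4572 of 27627) met the rule of the members without the exclusion of abundant rows. By the same rule 29.1% of lncRNA rows did (256 of 880). Whether the 2 tables were scaled alike is unknown.

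Of the 30 most abundant lncRNAs, 12 met the other criteria of the rule. Nearest to the members were ENSDART00000160090, with 40.58, 41.95 and 43.43 in intact fin, 18.34, 19.11 and 19.69 at 3 dpa and 24.03, 27.15 and 25.09 at 7 dpa, and TCONS_00052095, with 45.84, 43.76 and 36.92, then 19.21, 22.51 and 17.58, then 23.90, 22.95 and 30.92.

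Of the 5 pairs of members with consecutive ID numbers, TCONS_00058673 and TCONS_00058674 had correlated deviations (r = 0.984), TCONS_00029335 and TCONS_00029336 opposed ones (r = -0.612). The files do not say whether such pairs share a gene.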
